A study of Mus musculus with 4 samples.

Results

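CTCF sites in the Hox clusters of mouse splenic B cells and plasmablasts were taken as all CTCF peaks whose midpoint lay in 1 of 4 windows of 400 kb on mouse build mm9. The windows were chromosome 6 from 51950000 to 52350000 (Hoxa), chromosome 11 from 95950000 to 96350000 (Hoxb), chromosome 15 from 102600000 to 103000000 (Hoxc) and chromosome 2 from 74350000 to 74750000 (Hoxd). They held 49 sites of the 42765 sites in the study, with 49 peaks of the 36381 listed in B cells and 40 of the 31086 listed in plasmablasts. A site was called shared when the peaks of both lists overlapped by at least 1 bp, and a shared site was counted once.

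Binding was mapped by chromatin immunoprecipitation of CTCF followed by sequencing, in C57BL/6 mice aged 6 weeks. The B cells were the CD43-negative fraction of the spleen, separated on magnetic beads. The plasmablasts, which are dividing antibody-secreting descendants of activated B cells, were sorted from spleens on surface CD138 at 3 days after 50 µg of lipopolysaccharide was injected. A single CTCF library and a single input were made from either cell type, and the inputs were not analysed here. The labels do not say whether animals were pooled, and a peak list holds no expression values against which the cell type labels could be checked. Replicates being absent, differences between the cell types carry no p-value, and the interval given for a share is an exact (Clopper-Pearson) 95% binomial interval that covers counting error only. B cells were sequenced on a Genome Analyzer II and plasmablasts on a HiSeq instrument, so the instrument and the cell type cannot be told apart. The depth of the libraries is unknown, and a site that is not listed may still be bound.

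Hox genes encode homeodomain transcription factors that give cells their position along the body axis, and their order on the chromosome follows their order of expression along that axis. Mammals carry them in 4 clusters. CTCF is a zinc finger protein that acts as an insulator and as an anchor of chromatin loops, and in mouse motor neurons CTCF sites inside the Hoxa cluster are known to separate active genes from Polycomb-repressed ones. In blood, Hoxa7 and Hoxa9 are best known from progenitor cells and leukaemia. Hoxa11 is known for forearm, kidney and uterus development, Hoxd13 for the digits, Hoxd4 for the hindbrain and neck vertebrae, and Hoxd8 for the trunk. The gene table at hand is on build GRCm38, so it was used only for gene names. It lists 39 Hox genes, of which 11 are in Hoxa, 10 in Hoxb, 9 in Hoxc and 9 in Hoxd. Which gene each CTCF site lies next to was not determined for want of gene positions in mm9.

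The sequence context available for the genes was RefSeq's promoter windows on GRCm38.p6, each from 250 bases before to 50 bases after a start site. They covered 22 of the 39 Hox genes in 24 windows, among them Hoxa7, Hoxa9, Hoxa11, Hoxd4, Hoxd8 and Hoxd13. These windows were searched on both strands for CNAGGNGGC, letters from the core of the CTCF recognition sequence, with N standing for any base. The letters were chosen after other forms of the motif had been counted. A match was found in 2 of the 24 Hox windows (8.33%), against 2752 of 32851 promoter windows of the genome (8.38%). The shares are close, but with only 2 matches a difference in either direction could be missed. The 6 windows of Hoxa7, Hoxa9, Hoxa11, Hoxd4, Hoxd8 and Hoxd13 held none, which says only that the letters are not in these 300 bases. Their GC content ranged from 39.7% in Hoxd4 to 74.3% in Hoxd13. The windows with a match, those of Hoxd10 and Hoxa13, are printed 5′ to 3′ on the strand of the gene, with the matching letters in capitals. The Hoxd10 window is chr2:74691641-74691940 in the table's build, on the plus strand, and its match starts at base 189. The Hoxa13 window is on the minus strand at chr6:52260831-52261130, and its match, at base 225, reads as the reverse complement. Positions in GRCm38 are not comparable with the mm9 peak positions, so whether a CTCF peak covers either promoter was not determined.
Hoxd10: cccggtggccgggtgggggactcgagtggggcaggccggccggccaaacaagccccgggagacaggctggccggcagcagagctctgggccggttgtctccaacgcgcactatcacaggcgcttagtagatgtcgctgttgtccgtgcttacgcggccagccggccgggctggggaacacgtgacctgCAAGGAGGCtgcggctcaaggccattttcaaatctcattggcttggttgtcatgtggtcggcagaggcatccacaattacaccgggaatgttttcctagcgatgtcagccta
Hoxa13: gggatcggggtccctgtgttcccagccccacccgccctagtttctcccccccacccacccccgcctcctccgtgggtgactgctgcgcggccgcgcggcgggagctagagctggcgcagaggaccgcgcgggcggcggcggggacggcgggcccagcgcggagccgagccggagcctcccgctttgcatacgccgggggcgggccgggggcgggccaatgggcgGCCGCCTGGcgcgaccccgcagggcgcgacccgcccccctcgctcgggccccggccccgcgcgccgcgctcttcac

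The first comparison asked which Hox sites were listed in both cell types. Every CTCF peak listed in plasmablasts in the Hox windows was also listed in B cells, while 9 sites were listed in B cells only. Of the 40 plasmablast peaks all 40 were shared (100%, interval 91.2 to 100%), against 79.5% of the whole plasmablast list. With 0 of 40 peaks in plasmablasts only, a share of up to 7.50% is allowed by 3 counts. This is a rough limit for a count of 0, somewhat tighter than the exact interval. In B cells 40 of 49 peaks were shared (81.6%, interval 68.0 to 91.2%), against 67.9% of the whole B cell list. The plasmablast share lay above the genome-wide share by more than its counting interval. The lower bound of the B cell interval (68.0%) barely cleared the genome-wide share (67.9%). Sharing rose with score in the B cell list, from 12.3% of peaks in the lowest decile to 99.7% in the highest. Of the 49 Hox peaks, 29 lay above the list median, and the comparison was not adjusted for rank. No excess of shared B cell peaks is therefore claimed. In the plasmablast list sharing rose from 55.9% in the lowest decile to 96.8% in the highest, and 24 of the 40 Hox peaks lay above its median. The plasmablast comparison was not adjusted for rank either, beyond the split at the median below.

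**Figure D1:**
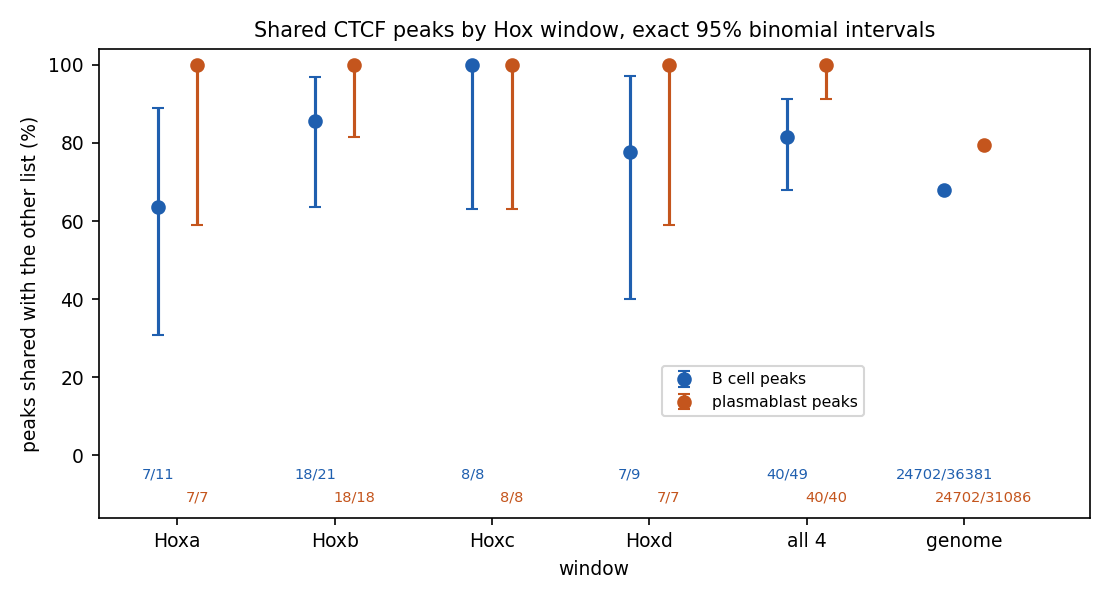
Percentage of CTCF peaks that overlap a peak of the other cell type by at least 1 bp, by Hox window, over all 4 windows and over the whole lists. Points are the percentages, bars are exact 95% binomial intervals, and the fractions give shared over listed peaks. All plasmablast points of the Hox windows sit at 100%, above the genome-wide 79.5%.

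The lack of plasmablast only peaks extended to weak peaks. Of the Hox plasmablast peaks at or below the median score of their list, 16 of 16 were shared (interval 79.4 to 100%), where 69.2% of all such plasmablast peaks were. Of the B cell peaks at or below the median score of that list, 12 of 20 were shared (60.0%, interval 36.1 to 80.9%), where 42.0% of all such B cell peaks were. Above the median, 28 of 29 B cell peaks were shared, against 94.1% over the genome. Of the plasmablast peaks above their median, 24 of 24 were shared (interval 85.8 to 100%), against 89.8% over the genome, which lies within that interval. As a description of how often a stretch of this size has no plasmablast only peak, autosomes were cut into fixed tiles of 400 kb. Of the 1924 tiles with at least 7 plasmablast peaks, the number in Hoxa and in Hoxd, 14.3% had no plasmablast only peak. With at least 8, as in Hoxc, the figure was 13.6%, and with at least 18, as in Hoxb, it was 3.36% (8 of 238 tiles). These tiles include ones with more plasmablast peaks than the window, so the figures are not for tiles of equal number. By them, a single window without plasmablast only peaks was not uncommon for Hoxa, Hoxc or Hoxd, and less common for Hoxb.

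The stretch without a plasmablast only peak ran past the window edges to differing extents. The nearest such peak lay 201.4 kb from the window centre in Hoxa, just outside the window, and 235.8 kb away in Hoxc and 255.3 kb away in Hoxb. In Hoxd it lay 411.5 kb from the centre on the low side and 876.8 kb on the high side, a stretch of 1288 kb. When each window was widened to 600 kb, 4 of 67 plasmablast peaks were unshared, and at 800 kb 9 of 93 were, against 20.5% of the whole plasmablast list. Over the 4 clusters together, the complete absence of plasmablast only peaks thus held for the 400 kb windows and not for the wider ones. In Hoxd it held for the wider windows as well.

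The clusters differed in their sharing among B cell peaks, within wide counting intervals. Hoxc had 8 sites, all shared (interval 63.1 to 100%). Hoxb had 21 sites with 18 shared (85.7%, interval 63.7 to 96.95%), Hoxd had 9 with 7 shared (77.8%, 40.0 to 97.2%), and Hoxa had 11 with 7 shared (63.6%, 30.8 to 89.1%). All of these intervals overlap, so no order of the clusters was detectable at these numbers of sites.

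**Figure D2:**
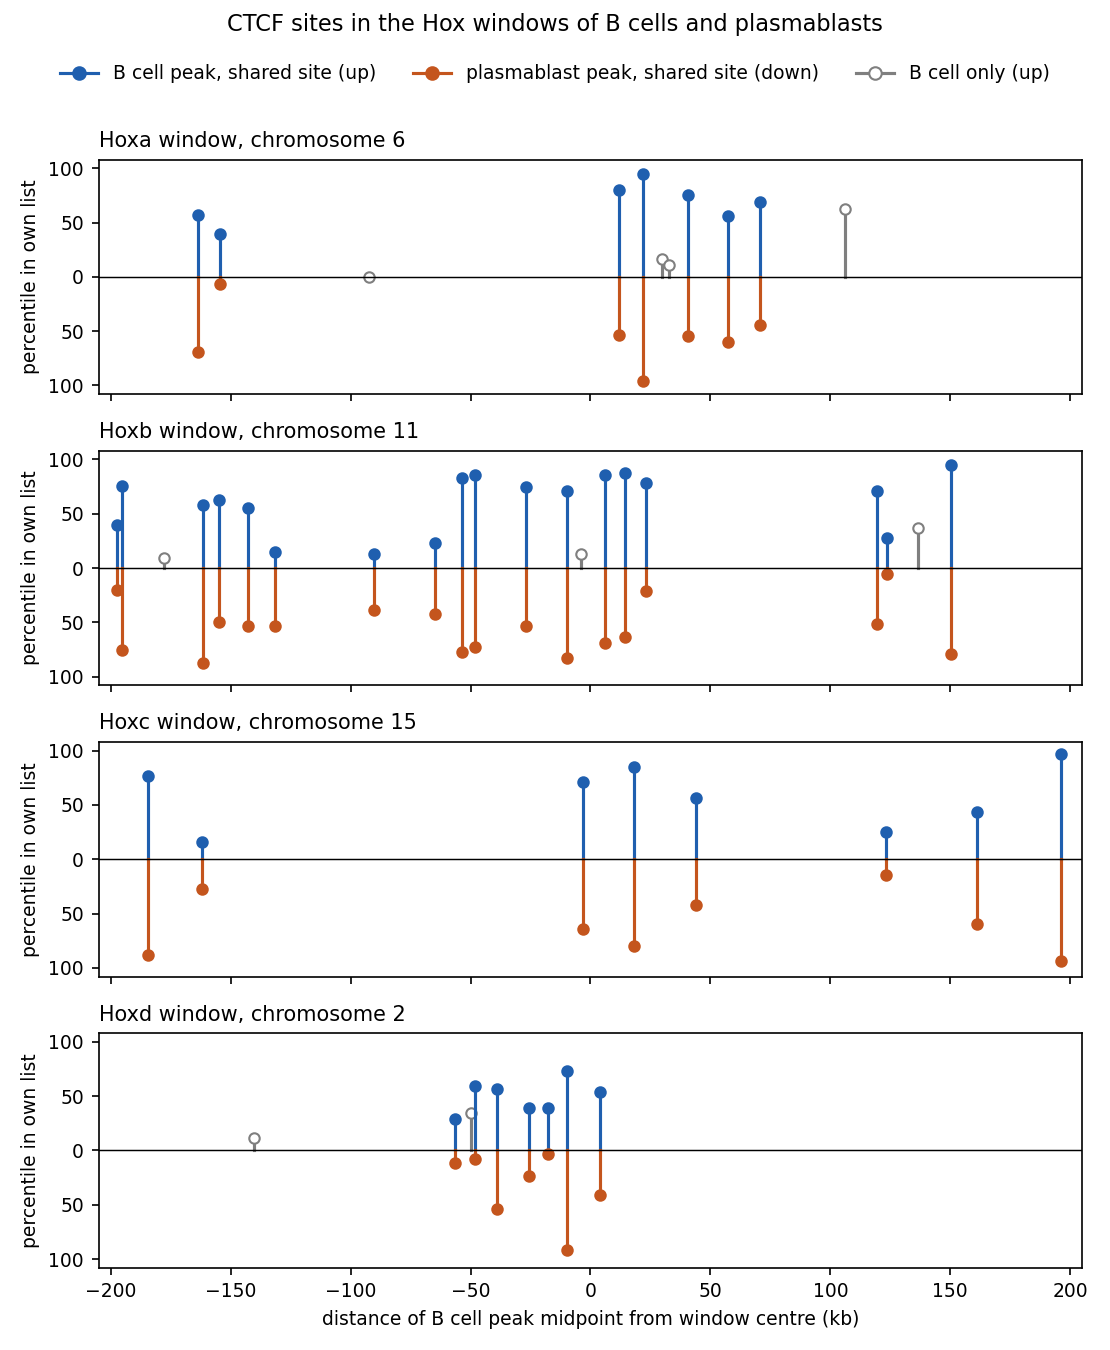
Position and strength rank of each CTCF site in the 4 Hox windows, by distance from the window centre in kb. Bars upward give the percentile of the B cell score in the B cell list and bars downward that of the plasmablast score in its own list, with open grey symbols for sites listed in B cells only. Both bars of a shared site are drawn at the B cell midpoint, so the figure does not show the offset between the peaks. The Hoxd sites gather within about 60.4 kb apart from 1 weak site to the left.

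Scores are the authors' own values on scales that differ between the lists, so strength is given as the percentile of a score in its own list, which is the share of peaks at or below it. The Hox sites spanned nearly the whole range of ranks, with medians slightly above the middle of either list. The median percentile was 56.8 over the 49 B cell peaks (range 0.23 to 97.0) and 53.6 over the 40 plasmablast peaks (range 3.23 to 96.0). By cluster the B cell medians were 56.8 in Hoxa, 62.9 in Hoxb, 63.7 in Hoxc and 39.1 in Hoxd. The plasmablast medians were 54.2, 53.5, 61.5 and 23.1 in the same order. Hoxd thus had the lowest median in both lists, and 5 of its 7 plasmablast peaks lay below the median score of that list.

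The strongest Hoxa site ranked near the top of both lists. It lay at 52171684 to 52171988 in B cells, with a score of 248.2 at the 94.9th percentile. The plasmablast peak at 52171726 to 52171904 scored 68.0, at the 96.0th percentile, and the peak midpoints were 21 bp apart. This site is part of a run of 7 sites over 59.0 kb, from midpoint 52161704 to 52220680, with neighbours at most 20 kb apart. The other 4 shared sites of that run ranked between the 56.5th and 80.0th percentiles in B cells and between the 44.6th and 60.2nd in plasmablasts. Between them were 2 weak B cell only peaks, at 52179485 to 52179789 (16.1st percentile) and 52182512 to 52182816 (11.1st), whose nearest plasmablast midpoints were 7822 and 7880 bp away.

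Beyond the high end of that run lay the strongest B cell only peak of the windows. It was at 52255916 to 52256220 with a score of 92.6, at the 62.0th percentile, and it was the only unshared Hox peak above a list median. The nearest plasmablast midpoint was 35351 bp away. In the same decile of the B cell list, 91.6% of peaks were shared (3372 of 3681), so most B cell peaks of this rank had a plasmablast counterpart. On the low side of Hoxa, a gap of 104.1 kb separated the site at midpoint 52161704 from a B cell only peak at midpoint 52057632, which had the lowest score found in the B cell list (10.2, the 0.23rd percentile). The low end held 2 shared sites, and that at 51995594 to 51995898 ranked at the 39.8th percentile in B cells and the 6.50th in plasmablasts.

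The Hoxb window was the richest, with 21 sites. Its 3 B cell only peaks were weak, at the 9.48th, 12.8th and 37.0th percentiles. The highest B cell score was 245.4 at 96300112 to 96300416 (94.5th percentile), where the plasmablast peak scored 41.8 (79.5th). The highest plasmablast score was at another site, 95988381 to 95988559, with 50.6 (87.0th percentile), where the B cell peak scored 82.4 (58.5th). The strongest site thus differed between the lists in Hoxb, whereas in Hoxa, Hoxc and Hoxd the same site led both.

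In the middle of Hoxb, 3 strong B cell sites lay within 17.0 kb, with B cell percentiles from 77.9 to 87.4. In plasmablasts the same sites ranked from the 21.0th to the 69.0th percentile. The last of them, at 96172884 to 96173188, had the largest shift between the lists of all shared Hox sites. It scored 155.6 in B cells (77.9th percentile) and 8.5 in plasmablasts (21.0th), a difference of -56.9 percentile points. Among shared sites of the genome in the same decile of the B cell list, 3.89% had a plasmablast rank as low or lower. The site was picked for its shift out of 40 shared Hox sites, so a small share does not mark it as unusual. This site also borders the widest gap of the window, 96.2 kb without a peak in either list up to the site at midpoint 96269246.

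Shared sites ranked higher in plasmablasts were found on the low side of Hoxb. The B cell peak at 96018524 to 96018828 scored 20.4 (14.4th percentile) and the plasmablast peak 21.4 (53.3rd), a difference of 38.96 points. In its decile of the B cell list, 86.6% of shared sites had a plasmablast rank as low or lower. The site at 95988326 to 95988630 described above differed by 28.5 points, and for it that figure was 97.0%. The site at 96059694 to 96059998 differed by 25.9 points, from the 12.8th to the 38.7th percentile, and its peak midpoints lay 198 bp apart, the widest offset of any shared Hox site. For this site the figure was 75.8%. These 3 were the only shared Hox sites with a plasmablast percentile higher by at least 20 points in the whole lists.

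The Hoxc window had the fewest sites and no unshared ones. Its leading site in both lists, at 102995914 to 102996218, had a B cell score of 267.7 (97.0th percentile) and a plasmablast score of 62.7 (94.1st). It was also the highest-ranked Hox site in B cells, and it lay 196.1 kb from the window centre, near the edge. In the middle part, 3 shared sites had B cell percentiles of 70.9, 84.6 and 56.5 and plasmablast percentiles of 63.8, 79.5 and 42.3. All 8 Hoxc sites differed by less than 20 points between the lists, with differences from -14.2 to 15.7. Counting only gaps with both end sites inside a window, the widest was here, 159.0 kb between the sites at midpoints 102637985 and 102797019. Of the gaps between neighbouring autosomal sites, 5.98% were as wide. The gaps that ran from Hoxd sites past the window edges were wider, at 248.6 kb on the high side and 271.1 kb on the low side.

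The Hoxd window combined close spacing inside with empty flanks. Of its 9 sites, 8 lay within 60.4 kb, from midpoint 74493638 to 74554005, and 7 of these were shared. The ninth was a weak B cell only peak at 74409453 to 74409757 (11.1st percentile). The next site of either list lay 248.6 kb above the last of the 9, and the one before lay 271.1 kb below the first. Gaps as wide made up 3.60% and 3.24% of those between neighbouring autosomal sites. The leading site in both lists, at 74540277 to 74540581, scored 134.3 in B cells (73.1st percentile) and 58.6 in plasmablasts (92.0th). It was the only Hoxd site that ranked higher in plasmablasts.

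The other shared Hoxd sites ranked lower in plasmablasts than in B cells. At 74501672 to 74501976 the B cell score of 86.1 (59.8th percentile) stood against a plasmablast score of 5.9 (8.09th), a difference of -51.7 points. At 74532127 to 74532431 the scores were 42.6 (39.1st) and 4.6 (3.23rd), a difference of -35.9 points. In their deciles of the B cell list, 7.06% and 4.88% of shared sites had a plasmablast rank as low or lower, though both sites were picked for their shifts. The B cell only peak at 74499903 to 74500207 (34.1st percentile) lay 1762 bp from the former of these plasmablast peaks.

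Across the 40 shared Hox sites, the shift between the lists was close to that of the genome. The median difference, plasmablast minus B cell percentile, was -11.6 points (exact binomial interval of the median -16.8 to -2.65), against -7.20 over all 24702 shared sites. A difference of at least 20 points downward was seen at 10 of 40 sites (25%), against 26.9% of all shared sites. An upward difference of that size was seen at 3 of 40 (7.50%), against 8.00% of all shared sites. Neither share stood apart from the background. With percentiles taken among shared peaks only, 4 sites were lower and 8 higher by that margin, against 16.9% and 15.9% of all shared sites, and the median difference was -2.27 points. By cluster, the downward count was 4 of 7 in Hoxa, 4 of 18 in Hoxb, 0 of 8 in Hoxc and 2 of 7 in Hoxd. For 3 of the 40 sites, fewer than 10% of shared sites in the same B cell decile had a plasmablast rank as low or lower. For 2 of the 40 that figure was above 90%, so the sites named for their shifts were not in excess. The Spearman rank correlation between the lists was 0.72 over the 40 Hox sites and 0.70 over all shared sites, a description across sites that share their libraries.

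**Figure D3:**
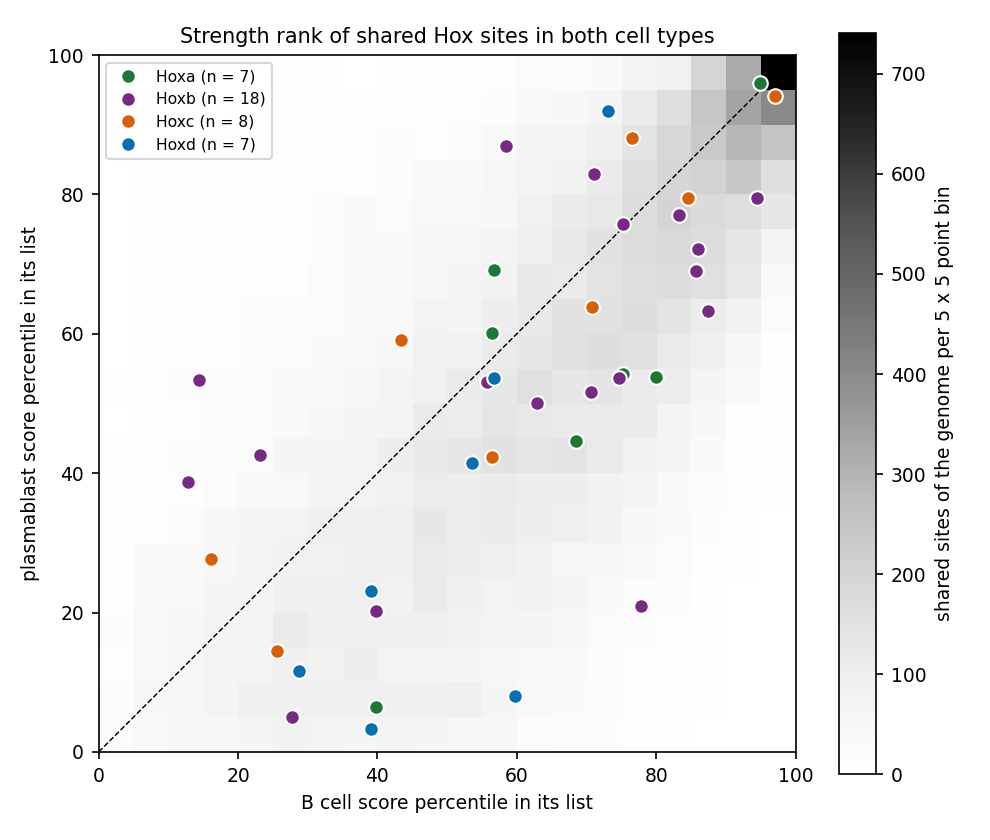
Percentile of the plasmablast score against that of the B cell score at the 40 shared Hox sites, each in its own list, coloured by cluster. Grey squares count all 24702 shared sites in bins of 5 by 5 points, and the dashed line marks equal percentiles. The Hox points follow the grey field, with 27 of 40 below the line, as are 16348 of all 24702 shared sites. The Hoxb point farthest below the line is the site at the 77.9th and 21.0th percentiles.

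The middle 200 kb of the windows and their outer parts differed somewhat in this shift. In the middle parts 18 of 24 shared sites ranked lower in plasmablasts, with a median difference of -14.0 points. In the outer parts 9 of 16 did, with a median of -2.82 points. Over the genome, 16348 of 24702 shared sites ranked lower in plasmablasts, with a median of -7.20 points. The clusters fill these parts unequally, since all 7 shared Hoxd sites lay in the middle. Within Hoxb, with 9 shared sites in each part, the medians were -13.7 (middle) and -12.8 points (outer). In Hoxa they were -21.1 (5 sites) and -10.4 (2 sites), and in Hoxc -7.06 (3 sites) and 11.6 (5 sites). The difference between the parts was not tested and cannot be told apart from that between clusters. Peak positions within shared sites were close, with a median of 20.5 bp between midpoints, against 17 bp over all shared sites, and 37 of 40 pairs within 50 bp.

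Site number varied between the clusters around the genomic range. The windows held 11 (Hoxa), 21 (Hoxb), 8 (Hoxc) and 9 (Hoxd) sites, where the 4550 autosomal 400 kb tiles with at least 1 site had a median of 7 (quartiles 3 and 13). Hoxb was thus at or above 92.6% of the tiles, Hoxa 67.3%, Hoxd 59.4% and Hoxc 55.0%. Neighbouring sites lay a median of 11.8 kb apart in Hoxa and in Hoxb, 34.8 kb in Hoxc and 8.76 kb in Hoxd, against 17.8 kb over the autosomes (quartiles 6.90 and 43.4 kb). These median gaps are all within the autosomal quartiles. With neighbours at most 10 kb apart, 26 of the 49 sites fell into runs of 2 to 4, none of them in Hoxc. The share of autosomal sites in such runs was not counted, so this number does not show crowding beyond that of the genome.

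**Figure D4:**
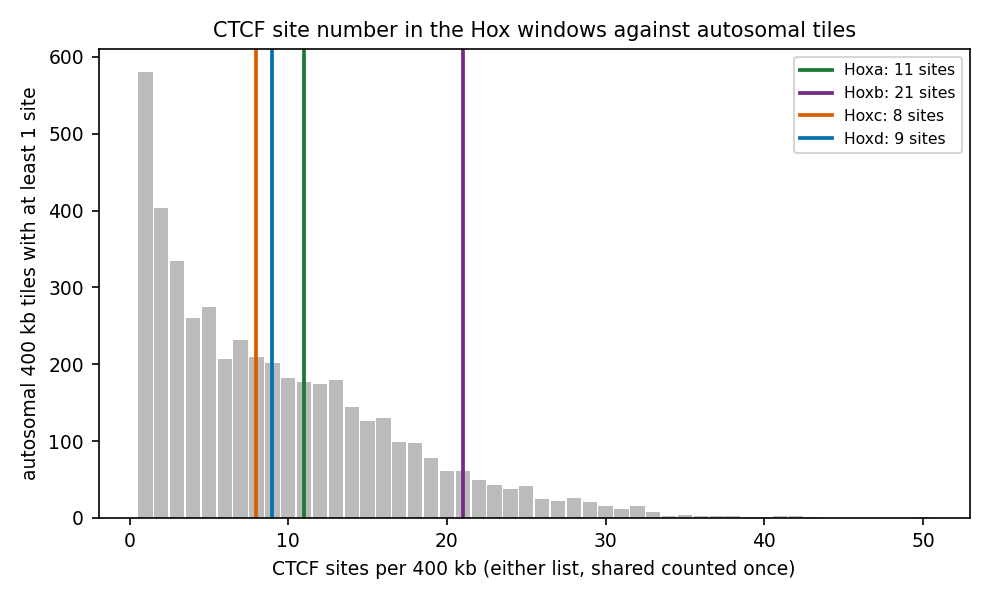
Number of CTCF sites per 400 kb in autosomal tiles with at least 1 site (grey bars, number of tiles), with coloured lines at the site number of each Hox window. Hoxb, with 21 sites, stands in the upper part of the range, and the other windows, with 8 to 11, stand near the median of 7.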

How the data were processed

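CTCF peaks of splenic B cells and splenic plasmablasts were analysed from the 2 peak lists that the authors deposited, 1 per CTCF library. Each deposited list gives a score per peak whose unit and scaling are not stated, and the score was used only as a rank within its list. Bowtie, HOMER and the build mm9 are named per the submitters' processing notes, with versions and thresholds not given in the sources used here. Starts were taken as zero-based BED starts and raised by 1. Per the labels' protocols, fixed chromatin was sheared to fragments of 200 to 400 bp on average.

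Members were the peaks with a midpoint in the 4 windows, and partners were the nearest peaks with at least 1 bp of overlap. The windows, site rules and comparisons were chosen with earlier results of these data known. Sites named in full are the leading shared site of each window in either list, unshared peaks above a list median, the 3 largest shifts in each direction and sites beside the widest gaps, and a few others were named after their values were seen. A shift was called at 20 percentile points. The overlap code was tested on simulated data. Python 3.11.15, numpy 2.4.6, pandas 2.3.3, scipy 1.17.1 and matplotlib 3.10.9 were used. Alternatives covered the overlap rule, list length, window size, percentile base, run gap and tile size.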

Additional observations from a re-analysis of the deposited data

How the results depend on the processing

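Of 40 alternatives, 23 stayed within the counting interval or within 1.5 times the count, and 17 moved. The shared share of B cell peaks was 96.6% above the median score. The shared share of plasmablast peaks was 86.7% among the 20000 highest scoring peaks of each list and 90.3% in windows of 800 kb, and 95% with 50% reciprocal overlap or midpoints within 100 bp. For the 20000 highest peaks and the 2 stricter overlap rules, the genome-wide share at the same setting is not given here. Whether the Hox share stays above it at those settings cannot be told. With percentiles taken among shared peaks only, the median difference was -2.27 points, and 4 sites were lower and 8 higher in plasmablasts by at least 20 points, where 16.9% and 15.9% of all shared sites were. In the main analysis 10 sites were lower and 3 higher, so the balance of downward and upward shifts turned around. The smaller number of upward shifts in the main analysis therefore depends on the percentile base. At 30 points, 4 sites were lower (10%) and 1 higher (2.5%), against 14.3% and 4.02% of all shared sites. Counting shared sites only, the windows were at or above 69.1% (Hoxa), 97.5% (Hoxb), 74.3% (Hoxc) and 69.1% (Hoxd) of tiles, and for the middle 200 kb at or above 79.7%, 88.4%, 42.4% and 79.7%. With gaps of up to 20 kb the longest run held 8 sites. The 2 wider windows were chosen after seeing the data. No paired analysis was possible because each cell type had 1 CTCF library, and no replicate could be left out. With 7 to 18 plasmablast peaks per window, the shares of single clusters are imprecise.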
